A study of Rattus norvegicus with 12 samples.

Results

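The ER membrane protein complex (EMC) was followed through 9 of its subunit genes, Emc1, Emc2, Emc3, Emc4, Emc6, Emc7, Emc8, Emc9 and Emc10, out of 17419 genes in the deposited tables. The genes were taken by symbol, and the complex was chosen by its Emc4 transcript level, which is low wherever the Btg1 siRNA was used. That pattern of Emc4 is therefore given as a description, and tests are given for other genes but not for Emc4. RNA was sequenced from cardiomyocyte-enriched primary cultures of newborn (P0) Sprague-Dawley rat heart ventricles, labelled wildtype, after fibroblasts had been separated off. Cultures were harvested at 48 h from the transfection of small interfering RNA (siRNA). Btg1 knockdown cultures received 10 nM of Btg1 siRNA with 10 nM of scramble, and Btg2 knockdown cultures received 10 nM of Btg2 siRNA with 10 nM of scramble. Double knockdown cultures received 10 nM of Btg1 siRNA with 10 nM of Btg2 siRNA, without scramble, and control cultures received 20 nM of scramble siRNA. Each of the 4 groups had 3 libraries. The labels name no animal, pool or culture of origin, so the p-values rest on the spread among 3 libraries a group, and that spread may be technical. Btg1 and Btg2 belong to the BTG/TOB family and bind CCR4-NOT, a deadenylase that shortens messenger RNA tails.

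The EMC sits in the membrane of the endoplasmic reticulum (ER) and inserts proteins into it. Its clients are tail-anchored proteins, which end in a single membrane segment, and multipass proteins such as receptors, channels and transporters, of which heart muscle cells carry many. Emc3 and Emc6 form the insertion channel together with the subunit Emc5, whose gene is named Mmgt1. Emc4 is a further membrane subunit beside them. Emc1, Emc7 and Emc10 reach into the ER lumen, and Emc2 with Emc8 or Emc9 caps the cytosolic side. Only transcripts were measured, not subunit proteins.

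The libraries held 24434925 to 46206581 counts, and 1 count was worth 0.0213 to 0.0422 CPM, the count scaled to library size by the TMM method. All 9 subunits passed the filter on low counts, with 398 to 11027 counts per library. The knockdowns were checked on their targets. Btg1 averaged 66.2 ± 4.07 CPM in Btg1 knockdown, 299 ± 4.70 in Btg2 knockdown, 51.7 ± 2.41 in double knockdown and 283 ± 2.19 in scramble cultures (SD, n = 3 each). Btg2 averaged 175 ± 5.003, 85.2 ± 2.31, 68.7 ± 0.983 and 139 ± 6.41 CPM in the same order of groups. Each target was lower where its siRNA was present, and Btg2 was at 127% of its scramble level in Btg1 knockdown cultures.

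Emc4, the membrane subunit that led to the choice of the complex, stood far below its scramble level in the cultures that received the Btg1 siRNA. In Btg1 knockdown it had 25.4, 25.6 and 29.9 CPM, and in Btg2 knockdown 83.9, 84.4 and 82.2 CPM. In double knockdown it had 24.5, 25.8 and 24.7 CPM, against 84.6, 83.2 and 84.9 CPM in scramble cultures. The 6 libraries with the Btg1 siRNA reached at most 29.9 CPM and the libraries without it had at least 82.2 CPM, with no overlap. Emc4 was at 32.1% of its scramble level in Btg1 knockdown and at 29.7% in double knockdown. On the log2 scale its differences were -1.64 ± 0.05 for Btg1 knockdown against scramble, -1.75 ± 0.06 for double knockdown against scramble and -1.74 ± 0.06 for double against Btg2 knockdown (SE). Among 9781 tested genes averaging at least 5 CPM, these were the 3rd, 4th and 4th lowest differences. These values are what chose the complex and carry no test. In bulk RNA, fewer cells of a type and less RNA per cell cannot be told apart.

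The Emc4 pattern that led to the choice was read over all 4 groups, so its differences across the Btg2 siRNA are descriptions too. Emc4 averaged 83.5 ± 1.13 CPM in Btg2 knockdown and 84.2 ± 0.872 CPM in scramble cultures (SD, n = 3 each). The log2 difference was -0.01 ± 0.05 (SE). Double knockdown averaged 25.0 ± 0.719 CPM and Btg1 knockdown 27.0 ± 2.55 CPM, a log2 difference of -0.11 ± 0.06. Neither difference carries a test, because values that chose Emc4 enter both. The departure of the double knockdown from the sum of the single log2 changes was -0.10 ± 0.08. It is built from the differences that chose Emc4 and carries no test.

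Emc1, the large and mostly lumenal subunit, was the subunit that moved the other way. It had 118, 119 and 117 CPM in Btg1 knockdown and 119, 115 and 117 CPM in Btg2 knockdown. It had 139, 131 and 134 CPM in double knockdown, against 90.0, 87.3 and 84.6 CPM in scramble cultures. Every library of the 3 knockdown groups was above every scramble library, and the double knockdown libraries were above those of both single knockdowns. Emc1 rose to 135% of its scramble level in Btg1 knockdown, 134% in Btg2 knockdown and 154% in double knockdown. The edgeR quasi-likelihood test was used, with Benjamini-Hochberg adjustment over all tested genes. The log2 changes were 0.44 ± 0.04 (SE, edgeR adjusted p = 9.1e-09), 0.42 ± 0.04 (adjusted p = 3.2e-08) and 0.63 ± 0.04 (adjusted p = 2.1e-11). These comparisons share their scramble libraries. Emc1 was also higher in double than in Btg1 knockdown, by 0.19 ± 0.04 (edgeR adjusted p = 9.9e-04), and higher in double than in Btg2 knockdown, by 0.20 ± 0.04 (adjusted p = 2.8e-04). Its rise in the double knockdown was smaller than the sum of its single rises, with a departure of -0.23 ± 0.06 (95% interval -0.35 to -0.12, edgeR adjusted p = 0.00511). With limma on log2(TPM + 1) that departure was -0.21 with an adjusted p of 0.0504.

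**Figure D1:**
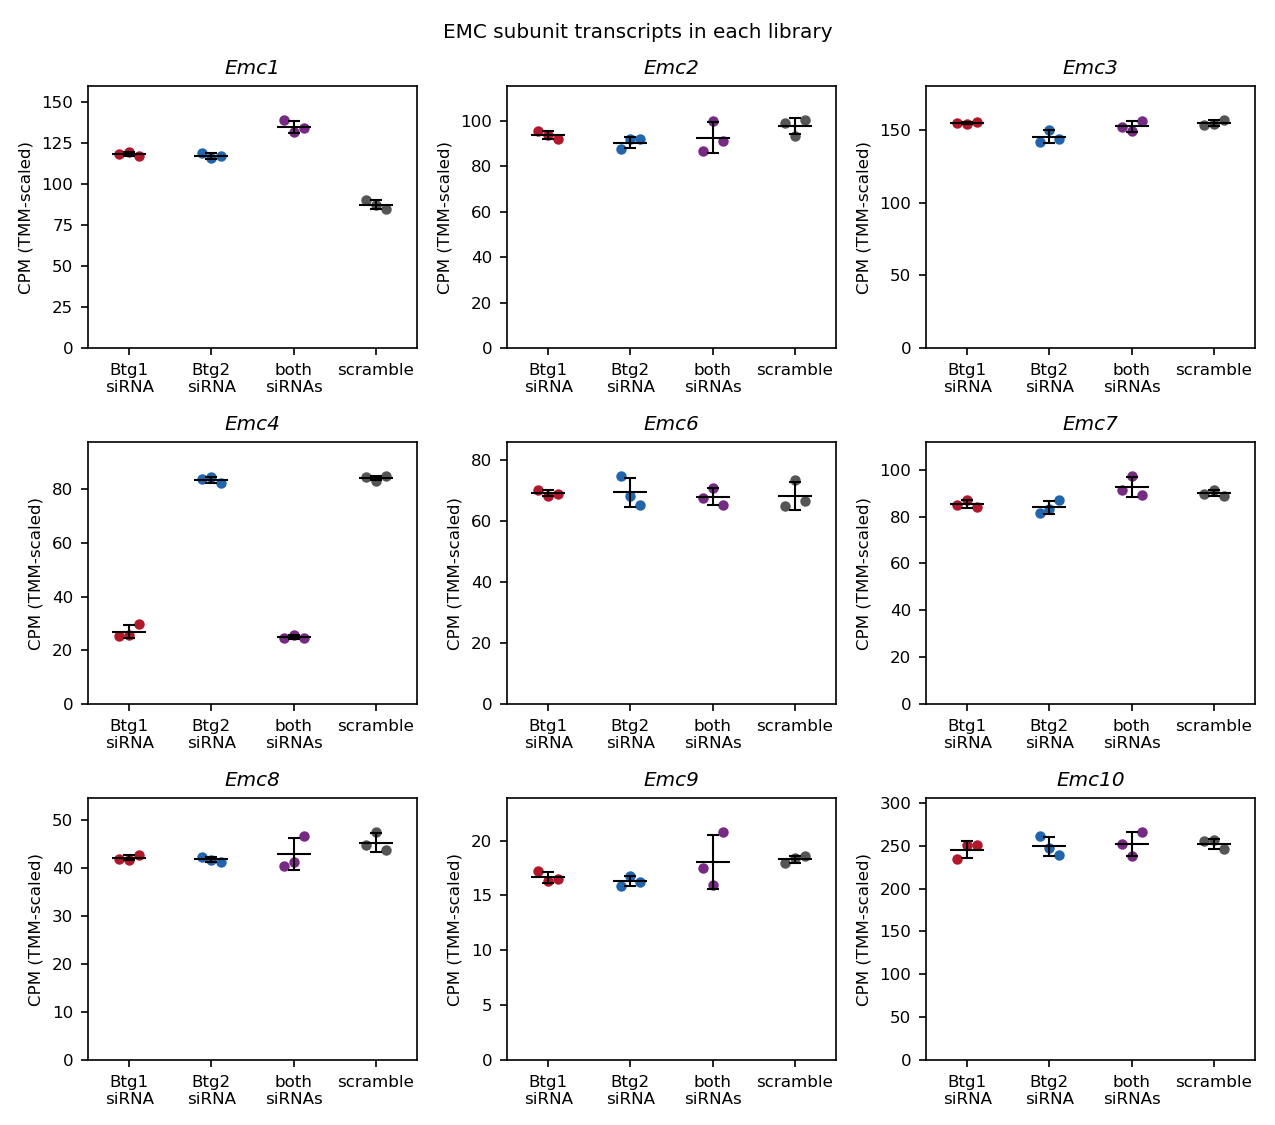
TMM-scaled CPM (vertical axis from 0) of the 9 EMC subunits in every library, by siRNA group, with the mean and SD of 3 libraries as bars. Emc4 lies at 24.5 to 29.9 CPM in the groups with the Btg1 siRNA and at 82.2 to 84.9 CPM in the others, Emc1 is lowest in scramble, and the remaining subunits differ little between groups.

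The promoter windows that RefSeq's tables give for Emc4 and Emc1 are shown because these were the subunits that differed most between groups, in opposite directions. Each run is the 250 bases before the listed start of the gene in the GRCr8 rat assembly, read 5′ to 3′ on the gene's strand, with capitals marking the motifs that were found. The Emc4 window is chr3:119629119-119629368 on the minus strand. It lies inside the annotated span of Emc4, so it is not upstream of the whole gene, and the listed start may be that of another transcript than the one counted. The Emc1 window is chr5:156891523-156891772 on the plus strand.
Emc4: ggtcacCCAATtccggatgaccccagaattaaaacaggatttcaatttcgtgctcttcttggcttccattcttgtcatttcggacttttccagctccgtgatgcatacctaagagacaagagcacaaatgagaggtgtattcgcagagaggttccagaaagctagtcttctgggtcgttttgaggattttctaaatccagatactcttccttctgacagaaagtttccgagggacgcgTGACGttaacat
Emc1: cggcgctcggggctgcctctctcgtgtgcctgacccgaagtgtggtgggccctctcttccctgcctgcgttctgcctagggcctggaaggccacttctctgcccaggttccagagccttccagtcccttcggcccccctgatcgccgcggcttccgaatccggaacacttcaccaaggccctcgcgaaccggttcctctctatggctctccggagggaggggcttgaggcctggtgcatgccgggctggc
The 4 motifs searched, on both strands, were the GC box GGGCGG, the CAAT box letters CCAAT, the ETS core CCGGAAG and the letters TGACG from the cyclic AMP response element. Matches of TGACG on opposite strands may overlap. The Emc4 window held 1 CCAAT and 1 TGACG, and the Emc1 window held none of the 4. Of 33469 rat promoter windows of the same length, 34% held CCAAT, 18.2% TGACG, 30.5% GGGCGG and 7.27% CCGGAAG. Guanine and cytosine made up 44.8% of the Emc4 window and 67.2% of the Emc1 window, beside a median of 51% over those windows, a comparison that carries the same doubt for Emc4. A match is a run of letters and not evidence of binding. Windows were found for 7 of the 9 subunits.

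The remaining subunits were close to their scramble levels in all 3 knockdown groups. Of the 8 subunits other than Emc4, 1 passed the test in Btg1 knockdown against scramble, Emc1, where 36.5% of all 12535 tested genes did (18.7% higher and 17.8% lower). In Btg2 knockdown against scramble 1 of 8 passed, again Emc1, where 30.0% of all genes did (16.4% higher and 13.6% lower). In double knockdown against scramble 1 of 8 passed, Emc1, where 38.9% did (19.4% higher and 19.5% lower). The count in Btg2 knockdown depended on the fit. It was 5 of 8 with library size alone, where 3827 of 12535 genes passed, and 3 of 8 in a fit of only the groups compared, where 4325 of 12297 genes passed. The median log2 change of the 8 subunits was -0.05 in Btg1 knockdown, -0.10 in Btg2 knockdown and -0.01 in double knockdown, beside medians over all tested genes of -0.00, -0.00 and -0.01. Leaving out Emc1, the other 7 ranged over -0.13 to 0.02, -0.17 to 0.02 and -0.08 to 0.04 on the log2 scale. The 95% intervals of these 7 reached no lower than -0.34 and no higher than 0.15 in any of the 3 comparisons.

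**Figure D2:**
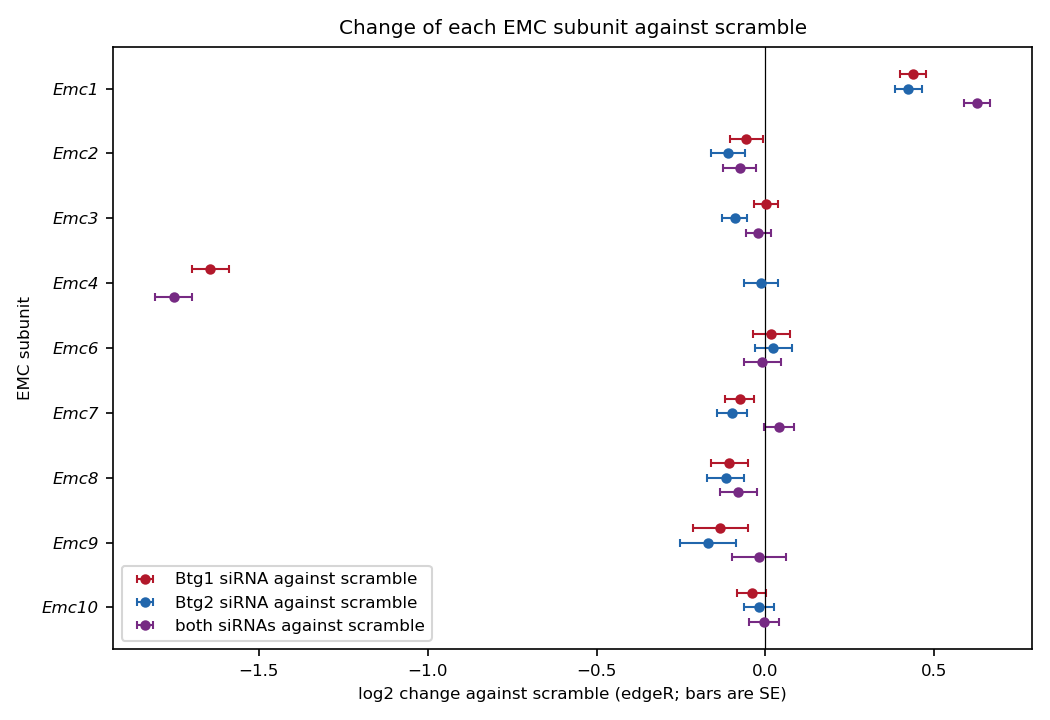
Log2 change against scramble (horizontal axis, edgeR, bars are SE) of each EMC subunit in Btg1 knockdown, Btg2 knockdown and double knockdown. Emc4 stands apart at -1.64 and -1.75 in the groups with the Btg1 siRNA, Emc1 at 0.42 to 0.63 in all 3, and the other 7 subunits lie between -0.17 and 0.04.

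The insertion channel was carried by 3 transcripts. Emc3, the channel subunit of the Oxa1 family, averaged 155 ± 0.644 CPM in Btg1 knockdown, 146 ± 4.35 in Btg2 knockdown, 153 ± 3.65 in double knockdown and 155 ± 1.85 in scramble cultures (SD, n = 3 each). Its largest difference was in Btg2 knockdown against scramble, at -0.09 ± 0.04 (edgeR adjusted p = 0.0671). Emc6, the small membrane partner of Emc3, averaged 69.3 ± 1.08, 69.5 ± 4.83, 68.0 ± 2.80 and 68.4 ± 4.65 CPM in the same order of groups, with log2 differences from scramble of -0.01 to 0.02. Neither passed in any of the 6 comparisons in the TMM-scaled edgeR fit of all libraries. With limma on log2(TPM + 1) the Emc3 value in Btg2 knockdown against scramble did (-0.09, adjusted p = 0.0424). It also passed in an edgeR fit of only the groups compared (-0.09, edgeR adjusted p = 0.0420). Mmgt1, which encodes Emc5 and is not among the 9 listed symbols, averaged 61.9 ± 3.90, 68.0 ± 2.68, 63.1 ± 4.26 and 57.9 ± 2.47 CPM. It rose in Btg2 knockdown against scramble by 0.23 ± 0.06 on the log2 scale (edgeR adjusted p = 0.00332). Its values were 0.10 ± 0.06 in Btg1 knockdown (adjusted p = 0.185) and 0.12 ± 0.06 in double knockdown (adjusted p = 0.0849), both by edgeR.

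Among the lumenal subunits, Emc7 stood out in the contrasts between knockdowns. Emc7 had 91.1, 97.3 and 89.3 CPM in double knockdown, against 81.6, 83.2 and 87.1 CPM in Btg2 knockdown. It had 85.0, 87.1 and 84.0 CPM in Btg1 knockdown and 89.8, 91.5 and 88.8 CPM in scramble cultures. The double knockdown libraries were above all those of the single knockdowns and overlapped with scramble. Emc7 was higher in double than in Btg2 knockdown by 0.14 ± 0.04 on the log2 scale (edgeR adjusted p = 0.0165). Its departure from additive effects was 0.22 ± 0.06 (95% interval 0.09 to 0.34, edgeR adjusted p = 0.0200), opposite in sign to that of Emc1. Against Btg1 knockdown the double knockdown value was 0.12 ± 0.04 (edgeR adjusted p = 0.0572). Its differences from scramble were -0.08 in Btg1 knockdown, -0.10 in Btg2 knockdown and 0.04 in double knockdown, with edgeR adjusted p values of 0.180, 0.0910 and 0.504. Both calls of Emc7 rested on individual libraries. Without double knockdown replicate 2 the adjusted p was 0.0940 against Btg2 knockdown and 0.0506 for the departure, and without Btg2 knockdown replicate 1 it was 0.0803 and 0.0560, all by edgeR. Without Btg2 knockdown replicate 2 the first was 0.0535, and the departure had 0.0540 without scramble replicate 2 and 0.05001 without Btg1 knockdown replicate 3. Emc10, the other small lumenal subunit and the most abundant of the 9 by CPM, averaged 245 ± 9.54 CPM in Btg1 knockdown, 249 ± 11.1 in Btg2 knockdown, 252 ± 13.8 in double knockdown and 252 ± 5.81 in scramble cultures. It passed no test in the 6 comparisons, with log2 differences from scramble of -0.04 to -0.00.

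On the cytosolic side no subunit passed in any of the 6 comparisons in the TMM-scaled edgeR fit of all libraries or with DESeq2. At an unadjusted p under 0.05 in that edgeR fit were Emc2 and Emc8 in Btg2 knockdown against scramble and Emc9 for the departure from additive effects. Some other edgeR fits called Emc2 and Emc8 lower than in scramble. In double knockdown Emc2 passed without double knockdown replicate 2 (-0.14, edgeR adjusted p = 0.0286) and Emc8 without double knockdown replicate 3 (-0.15, adjusted p = 0.0297). In Btg2 knockdown Emc2 passed in a fit of only the groups compared (-0.11, edgeR adjusted p = 0.0349). Emc2, the scaffold that holds this side together, averaged 93.9 ± 1.97 CPM in Btg1 knockdown, 90.5 ± 2.53 in Btg2 knockdown, 92.6 ± 6.86 in double knockdown and 97.7 ± 3.58 in scramble cultures. Emc8 and Emc9 are paralogs that take the same place on Emc2. Emc8 averaged 42.1 ± 0.500, 41.7 ± 0.542, 42.8 ± 3.35 and 45.3 ± 1.93 CPM in the same order of groups. Emc9, with the fewest counts of the 9, averaged 16.7 ± 0.504, 16.3 ± 0.454, 18.1 ± 2.47 and 18.3 ± 0.319 CPM. Its double knockdown libraries spread over 15.9 to 20.8 CPM, the widest relative spread among the subunits there. Without double knockdown replicate 2, the lowest of them, Emc9 was higher in double than in Btg2 knockdown by 0.23 (edgeR adjusted p = 0.0331), and its departure from additive effects was 0.37 (adjusted p = 0.0262). With all libraries these were 0.15 (edgeR adjusted p = 0.170) and 0.29 (adjusted p = 0.101).

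Between the knockdown groups, 1 of the 8 subunits other than Emc4 passed the test in double against Btg1 knockdown, Emc1, where 22.3% of all tested genes did (10.3% higher and 11.9% lower). In double against Btg2 knockdown 2 of 8 passed, Emc1 and Emc7, where 32.2% of all genes did (15.2% higher and 17.0% lower). The departure from additive effects passed for 2 of 8, with Emc1 negative and Emc7 positive, where 15.1% of all genes did (4.99% positive and 10.1% negative). The medians of the 8 subunits were 0.03, 0.05 and 0.08 on the log2 scale, beside -0.00, 0.00 and 0.01 over all tested genes.

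The order of the subunit transcripts was read from the deposited TPM, which are per length and allow levels of different genes to be set side by side. In scramble cultures the order of mean TPM was Emc10 (305), Emc7 (195), Emc2 (184), Emc3 (161), Emc4 (117), Emc6 (107), Emc8 (89.0), Emc9 (44.3) and Emc1 (27.1). All 8 pairs of neighbours in that order had ranges that did not overlap over the 3 libraries. Emc4 left its middle place where the Btg1 siRNA was present. In Btg1 knockdown it averaged 37.3 ± 2.94 TPM and was 8th, with a range that overlapped those of Emc9 above it (40.2 ± 1.99 TPM) and Emc1 below it (36.6 ± 0.907 TPM). In double knockdown Emc4 averaged 35.0 ± 1.06 TPM and was last, below Emc1 at 42.1 ± 1.46 TPM without overlap, whereas Emc1 overlapped with Emc9 at 44.0 ± 5.70 TPM. In Btg2 knockdown Emc4 was in its scramble place at 115.5 ± 0.872 TPM, with a range that overlapped that of Emc6 at 108 ± 6.99 TPM. Emc7 and Emc2 overlapped in both single knockdowns.

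**Figure D3:**
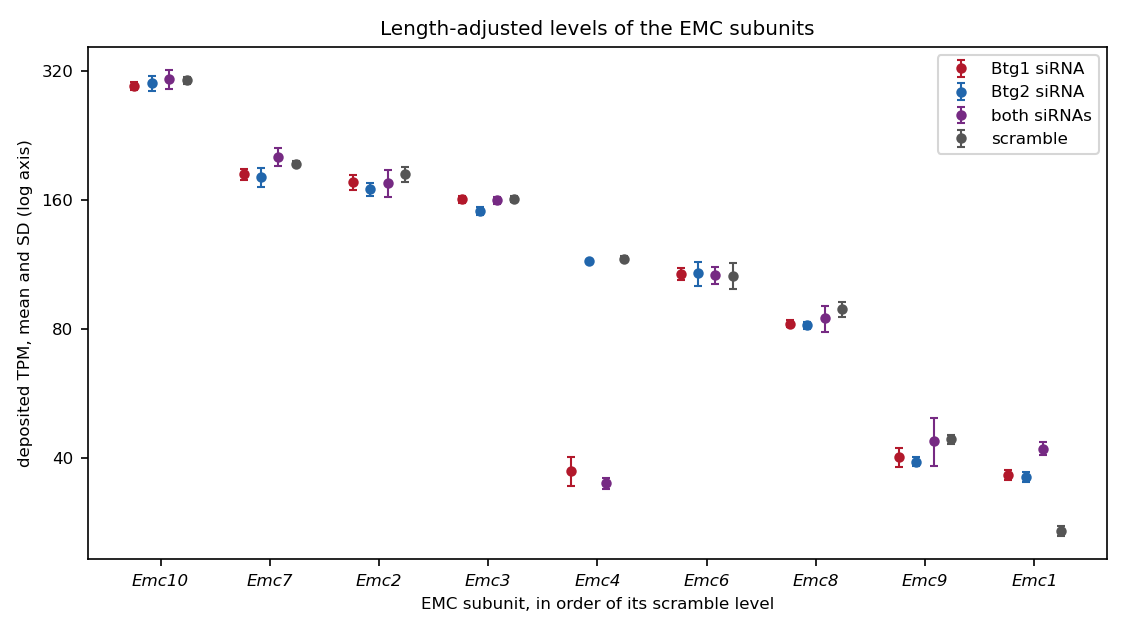
Deposited TPM of the 9 EMC subunits (vertical log axis, mean and SD of 3 libraries), in the order of their scramble levels, for Btg1 knockdown, Btg2 knockdown, double knockdown and scramble cultures. Emc4 lies at 37.3 and 35.0 TPM in the groups with the Btg1 siRNA, near Emc9 and Emc1, and at 115.5 and 117 TPM in the others.

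Ratios within a library do not depend on the scaling between libraries. The ratio of Emc4 CPM to the geometric mean CPM of the 7 subunits other than Emc1 and Emc4 was 0.355 ± 0.0340 in Btg1 knockdown, 1.12 ± 0.00487 in Btg2 knockdown, 0.322 ± 0.0136 in double knockdown and 1.06 ± 0.0261 in scramble cultures (SD, n = 3 each). The same ratio of Emc1 was 1.55 ± 0.0148, 1.57 ± 0.0281, 1.73 ± 0.0816 and 1.10 ± 0.0393 in the same order of groups. For Emc1 the 3 knockdown groups thus lay above scramble within libraries too. The ratio of Emc4 to Emc1 in TPM was 1.02 ± 0.105 in Btg1 knockdown, 3.19 ± 0.0664 in Btg2 knockdown, 0.832 ± 0.0459 in double knockdown and 4.32 ± 0.147 in scramble cultures. Emc4 made up 3.33%, 9.77%, 3.02% and 9.52% of the summed TPM of the 9 subunits in that order. Without Emc4, the summed TPM was 1084 ± 17.5, 1067 ± 14.9, 1123 ± 9.47 and 1112 ± 10.4.

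**Figure D4:**
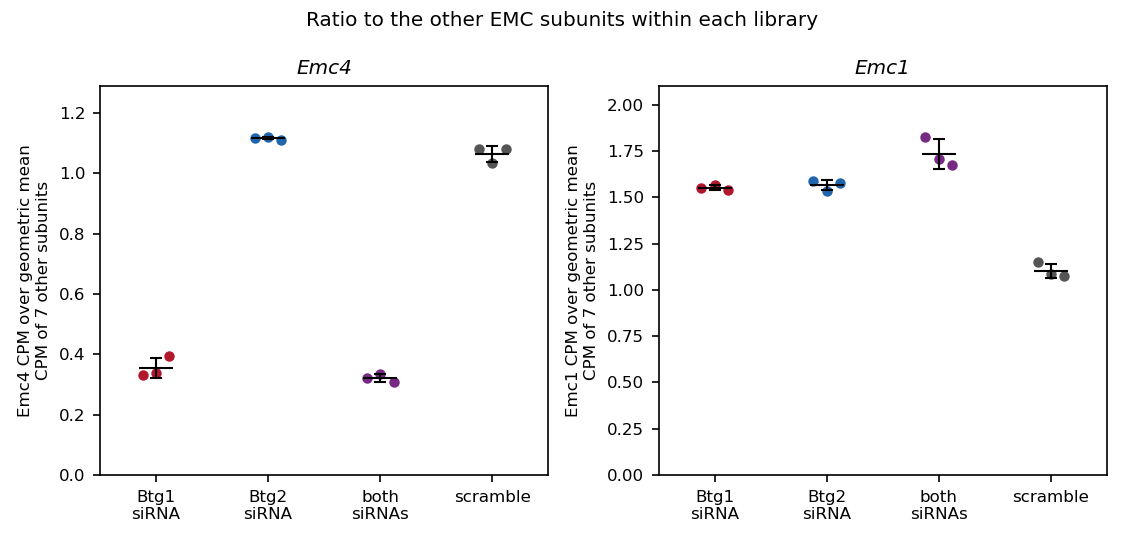
Ratio of Emc4 CPM (left) and Emc1 CPM (right) to the geometric mean CPM of the 7 other EMC subunits in each library (vertical axes from 0), with the mean and SD of 3 libraries. The Emc4 ratio is near 0.3 in the groups with the Btg1 siRNA and above 1 in the others, and the Emc1 ratio is lowest in scramble.

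Genes next to the subunits were read for shared counts, since the strand setting of the counting is not given in the sources used here. Where genes overlap, reads in the overlap cannot be assigned with certainty. The neighbours of Emc1 had smaller differences than Emc1. Ubr4, a ubiquitin ligase gene, had log2 differences from scramble of 0.05 ± 0.04 in Btg1 knockdown (edgeR adjusted p = 0.354), 0.21 ± 0.04 in Btg2 knockdown (adjusted p = 1.4e-04) and 0.21 ± 0.04 in double knockdown (adjusted p = 9.7e-05). Mrto4, on the other side, had 0.02, 0.09 and 0.17, of which the last passed the test (edgeR adjusted p = 0.0103). In RefSeq's GRCr8 assembly Emc9 overlaps Psme1, a proteasome activator gene far more abundant than Emc9, which rose in double knockdown against scramble by 0.24 ± 0.04 (edgeR adjusted p = 3.4e-05). Katnbl1, beside Emc7 without overlap, rose by 0.33, 0.45 and 0.73 in Btg1, Btg2 and double knockdown against scramble (edgeR adjusted p = 0.0302, 0.00543 and 1.8e-05), whereas Emc7 did not pass in these comparisons.

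The genes whose pattern over the 12 libraries was most like that of Emc4 were found by the root-mean-square difference of log2 CPM from the scramble mean, over 9771 genes. The 5 nearest were Sgcb, Atp1b2, Colec12, Tceal1 and Slc25a34, with differences from Emc4 of 0.221, 0.279, 0.280, 0.305 and 0.334. Sgcb encodes beta-sarcoglycan of the muscle membrane. It stood at 39.3% of its scramble level in Btg1 knockdown, 91.8% in Btg2 knockdown and 36.2% in double knockdown. Atp1b2, a beta subunit of the sodium pump, stood at 38.3%, 95.4% and 39.6%, and Tceal1 at 42.9%, 100.5% and 38.6%, in the same order. Colec12, a scavenger receptor, and Slc25a34, of the mitochondrial carrier family, stood at 78.2% and 78.1% in Btg2 knockdown, so their match to Emc4 was less close there. These genes were selected for likeness, and their levels carry no test.

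**Figure D5:**
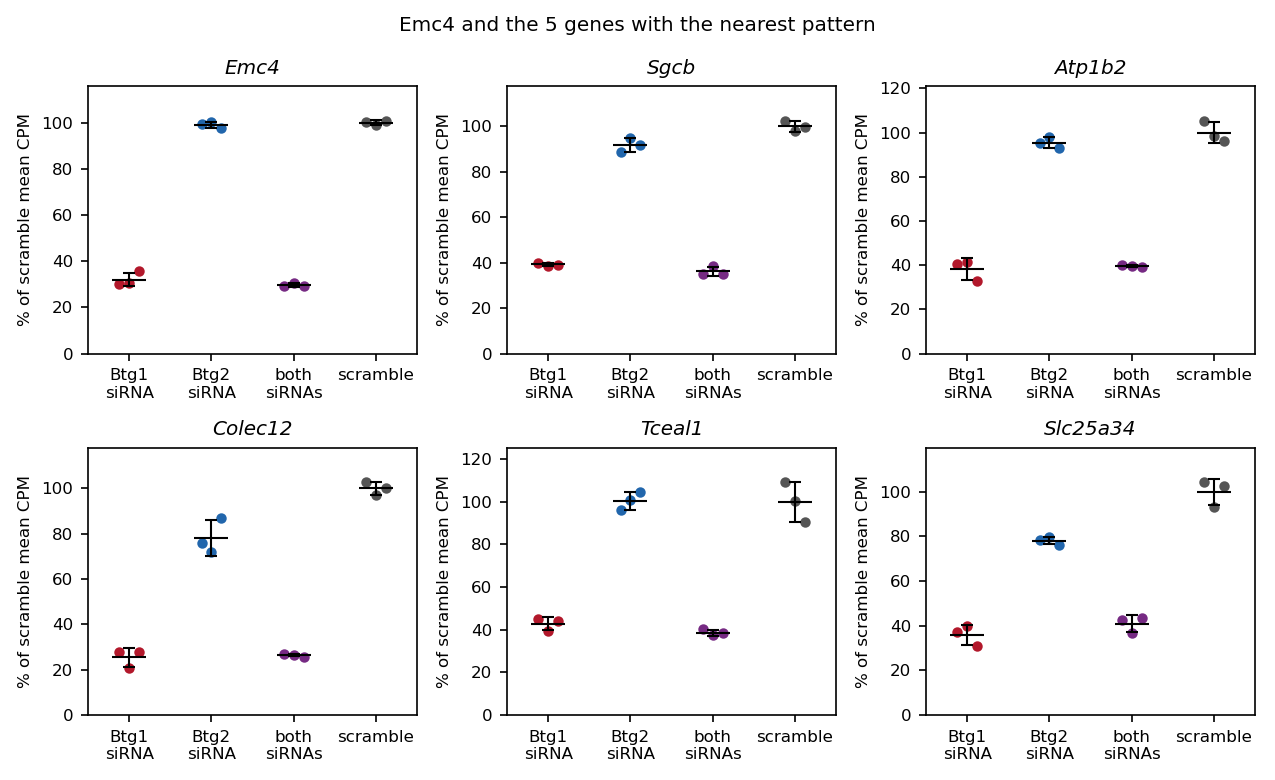
CPM as a percentage of the scramble mean (vertical axes from 0) in each library for Emc4 and the 5 genes with the most similar pattern, with the mean and SD of 3 libraries. All 6 lie at 25.5% to 42.9% of scramble on average in the groups with the Btg1 siRNA and at 78.1% to 100.5% in Btg2 knockdown.

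Other machinery that inserts or processes proteins at the ER, and 4 genes of EMC clients, were read from 8 lists with 67 tested genes. Of the clients, Fdft1 and Soat1 are among the rises in Btg1 knockdown and Adrb1 among those in Btg2 knockdown. Against scramble, 9 rose and 18 fell in Btg1 knockdown (40.3% called, beside 36.5% over all tested genes). In Btg2 knockdown 10 rose and 16 fell (38.8%, beside 30.0%), and in double knockdown 14 rose and 27 fell (61.2%, beside 38.9%). Over all tested genes 17.8%, 13.6% and 19.5% fell in these comparisons, the shares against which the counts of each list are to be read. Of the Sec61 channel through which most ER proteins pass and its TRAP partners, 0 of 10 rose and 3 fell in Btg1 knockdown, 1 rose and 1 fell in Btg2 knockdown, and 1 rose and 6 fell in double knockdown, with median log2 changes of -0.09, -0.05 and -0.16. In either direction the Btg1 count is close to the 36.5% called over all genes, but all of its calls were lower, beside 17.8% lower over all genes. Ssr2, a TRAP subunit, averaged 123 ± 3.07 CPM in Btg1 knockdown, 215 ± 2.49 in Btg2 knockdown, 141 ± 5.58 in double knockdown and 227 ± 3.81 in scramble cultures. It fell by 0.88 ± 0.04 in Btg1 knockdown (edgeR adjusted p = 7.6e-14) and by 0.69 ± 0.04 in double knockdown (adjusted p = 2.3e-12), on the log2 scale. Tram1, which assists the channel, fell by 0.36 ± 0.04 and 0.47 ± 0.04, and Sec61a1, the channel itself, by 0.29 ± 0.03 and 0.24 ± 0.03. None of these 3 is an EMC subunit, and their changes were smaller than that of Emc4.

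The GET pathway, which delivers tail-anchored proteins to the ER by another route, had calls in both directions. Of 7 genes, 2 rose and 1 fell in Btg1 knockdown, 1 rose and 1 fell in Btg2 knockdown, and 2 rose and 2 fell in double knockdown, where 36.5%, 30.0% and 38.9% of all genes were called. Get4, which hands clients to the pathway, rose by 0.40 ± 0.04 in Btg1 knockdown (edgeR adjusted p = 2e-07), 0.36 ± 0.04 in Btg2 knockdown (adjusted p = 1.9e-06) and 0.57 ± 0.04 in double knockdown (adjusted p = 6.5e-10). Of its membrane receptor, Get1 rose by 0.22 and 0.20 in Btg1 and double knockdown and Camlg fell by 0.32 and 0.26. In the multipass translocon, which works beside the Sec61 channel, 1 of 7 rose and 2 fell in Btg1 knockdown, 0 rose and 1 fell in Btg2 knockdown, and 2 rose and 1 fell in double knockdown. Tmco1, of this group, fell by 0.18, 0.23 and 0.33 in Btg1, Btg2 and double knockdown. Of 8 genes of the signal recognition particle and its receptor, 0 rose and 2 fell in each single knockdown, and 2 rose and 2 fell in double knockdown.

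Of 11 oligosaccharyltransferase genes, which add sugar chains in the ER, 2 rose and 4 fell in Btg1 knockdown, 2 rose and 5 fell in Btg2 knockdown, and 2 rose and 8 fell in double knockdown, where 36.5%, 30.0% and 38.9% of all genes were called in either direction. Rpn1 fell by 0.28, 0.25 and 0.60 in that order, and Stt3b, a catalytic gene, rose by 0.20, 0.22 and 0.20. Its paralog Stt3a passed the test as lower in Btg1 and double knockdown against scramble, but not in Btg2 knockdown. Of 5 signal peptidase genes, 1 rose and 1 fell in Btg1 knockdown, 0 rose and 2 fell in Btg2 knockdown, and 1 rose and 3 fell in double knockdown. ER-associated degradation clears misfolded membrane proteins. Of its 15 genes, 1 rose and 5 fell in Btg1 knockdown, 5 rose and 4 fell in Btg2 knockdown, and 4 rose and 5 fell in double knockdown. Os9 fell by 0.54 in Btg1 and 0.44 in double knockdown, and Herpud1 by 0.42 and 0.36. These lists were chosen with earlier results of these data known, so their shares are descriptions.

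Transcripts of proteins whose insertion by the EMC is known from human cells were read beside Emc4. Of 4 such genes, Fdft1, a sterol synthesis enzyme, rose in Btg1 knockdown by 0.17 ± 0.05 (edgeR adjusted p = 0.0191) and Soat1, which esterifies cholesterol, by 0.19 ± 0.05 (adjusted p = 0.00690). Adrb1, the main beta-adrenergic receptor of heart muscle, rose in Btg2 knockdown by 0.48 ± 0.15 (edgeR adjusted p = 0.0409). In double knockdown their log2 differences from scramble were -0.02 for Fdft1, -0.03 for Soat1, 0.37 for Adrb1 and -0.05 for Tmem97, with edgeR adjusted p values of 0.770, 0.728, 0.0879 and 0.614. Fdft1 and Soat1 were lower in double than in Btg1 knockdown, by log2 values of -0.19 (edgeR adjusted p = 0.0144) and -0.22 (adjusted p = 0.00448). Soat1 also departed from additive effects, by -0.31 (edgeR adjusted p = 0.00817). Against scramble 36.5%, 30.0% and 38.9% of all genes were called in Btg1, Btg2 and double knockdown, and 22.3% in double against Btg1 knockdown. Insertion itself acts on the protein and was not measured.

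Markers of other cell types moved with some of these comparisons. The summed CPM of 8 fibroblast markers was 12347 to 14645 in Btg1 knockdown, 15174 to 16056 in Btg2 knockdown, 12432 to 13498 in double knockdown and 15256 to 15818 in scramble cultures. Of the 8, 7 fell in Btg1 knockdown, 5 in Btg2 knockdown and 7 in double knockdown against scramble, where 17.8%, 13.6% and 19.5% of all genes fell. The sums of 7 cardiomyocyte markers were 21018 to 24394, 21599 to 24274, 23514 to 23794 and 20696 to 21246 CPM in the same order of groups. Those of 6 endothelial markers were 69.3 to 75.9, 69.0 to 72.1, 54.8 to 60.2 and 83.04 to 86.9 CPM, and those of 6 macrophage markers 19.1 to 22.02, 17.6 to 18.04, 19.4 to 21.3 and 24.7 to 29.7 CPM. Smooth muscle markers, 4 genes, summed to 1956 to 2545, 1955 to 2297, 1818 to 2004 and 1717 to 1864 CPM, and 3 red cell markers stayed between 0.967 and 2.02 CPM in all groups. No marker averaged 0 in any group. The fibroblast sum was thus lowest in the groups where Emc4 was low. In scramble cultures, where Emc1 was lowest, the cardiomyocyte and smooth muscle sums were lowest on average, and the endothelial and macrophage sums were highest. Their part in the results for Emc4 and Emc1 was not tested.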

How the data were processed

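RNA-seq of 12 cardiomyocyte culture libraries was analysed, 3 in each of 4 groups set by the sample titles. The authors deposited a table of raw, whole-number counts for 17419 gene symbols and a table of TPM values rounded to 0.1. The submitters' processing notes name the build rn5 and, without versions, STAR, featureCounts, FastQC, cutadapt and Trim Galore. The strand setting and the annotation used for counting are not given here. Per the labels' protocols, RNA was amplified (Ovation RNA-Seq v2) and made into libraries with Nextera XT, so reads are not independent molecules. Counts and TPM of the subunits were proportional to within 0.177%. No column belonged to another series.

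Counts were tested with edgeR 4.0.16 (R 4.3.3): filterByExpr kept 12535 genes and removed 4884, with TMM factors of 0.971 to 1.02, a robust quasi-likelihood fit of all 12 libraries with 1 mean per group and 8 residual degrees of freedom, and Benjamini-Hochberg adjustment over all tested genes, called at 0.05. A standard error is the log2 change divided by the root of its F. The common biological coefficient of variation was 4.97%. Replicates differed beyond counting noise, with chi-square per degree of freedom of 4.26 to 28.2. TPM were used for levels between genes and, as log2(TPM + 1) and log2(TPM + 0.1), in limma 3.58.1. Alternatives were DESeq2 1.42.0, scaling by RLE or by library size alone, a stricter filter (1 CPM in 6 libraries) or none, a fit of only the groups compared, a replicate block, and each library left out.

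The subunits, lists and tests were chosen with earlier results of these data known. Genes were named by rule: all 9 subunits, Mmgt1, Btg1, Btg2, the annotated gene on either side of each subunit, the 5 tested genes averaging at least 5 CPM and most like Emc4, and from each ER list up to 4 genes with the smallest p in Btg1 or double knockdown against scramble. Not every gene this rule names is reported. Values of other list genes named beside them were chosen after their values were seen. Symbols matched the RefSeq table (GRCr8) for 17074 of 17419 genes. That assembly is not rn5, so its order of genes and its upstream sequences are used for names, neighbours and motifs only.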

Additional observations from a re-analysis of the deposited data

Results flagged for a closer look

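In the edgeR fit of all libraries, Emc1 and Emc7 each responded differently to the Btg1 siRNA with and without the Btg2 siRNA, by a test of that difference itself. For Emc1 the log2 effect of the Btg1 siRNA was 0.20 in the presence of the Btg2 siRNA and 0.44 in its absence, a difference of -0.23 ± 0.06 (SE, edgeR adjusted p = 0.00511). For Emc7 the effect was 0.14 with and -0.08 without the Btg2 siRNA, a difference of 0.22 ± 0.06 (edgeR adjusted p = 0.0200). The Emc7 difference did not pass with some single libraries left out, such as Btg2 knockdown replicate 1 (edgeR adjusted p = 0.0560). The Emc1 difference did not pass with limma on log2(TPM + 1) (adjusted p = 0.0504). Over all tested genes 15.1% passed this test, 4.99% with a positive and 10.1% with a negative difference. The doses differ in that the double knockdown held no scramble siRNA, which cannot be told apart from the joint presence of the targeting siRNAs.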

How the results depend on the processing

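Emc1 passed the test in all 5 pairwise comparisons under each of the 15 alternatives, and no value of a subunit or count that had been called reversed. The number of the 8 subunits other than Emc4 that passed in Btg2 knockdown against scramble, 1 in the edgeR fit, was 5 with library size alone (Emc1, Emc2, Emc3, Emc7 and Emc8), 3 with only the groups compared (Emc1, Emc2 and Emc3), 2 with limma on log2(TPM + 1) or on log2(TPM + 0.1) (Emc1 and Emc3), and 1 to 2 with a library left out. In double against Btg1 knockdown it was 2 with DESeq2 or RLE scaling (Emc1 and Emc7) and 1 to 2 with a library left out, beside 1. For the departure from additive effects it was 1 with limma on log2(TPM + 1) (Emc7) and 1 to 2 with a library left out, beside 2. With a library left out it was 1 to 2 in double against scramble and 1 to 2 in double against Btg2 knockdown. With limma on log2(TPM + 1) the Emc4 differences were -1.71 in double against scramble and -1.69 in double against Btg2 knockdown. The cause was not tested. With library size alone, 41.3% of calls in Btg2 knockdown against scramble were higher, against 54.5% with TMM. That share was 58.2% against 47.3% in double against Btg2 knockdown and 49.7% against 33.1% for the departure. Replicate numbers did not pair the libraries (correlations of same-numbered deviations -0.0920 to 0.0599). With the replicate number as a block, 4455, 3650, 4759, 2659, 3919 and 1768 genes passed in the 6 comparisons, and 1, 1, 1, 1, 2 and 2 of the 8 subunits. Depth limits Emc9 most, with 398 to 837 counts per library.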
